A study of Mus musculus with 2 samples.

Results

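Matrix metalloproteinases (MMPs) and their tissue inhibitors (TIMPs) were described in the bulk RNA-seq of GFP+CD4+ T cells from bleomycin (BLM)-administered mice. The rows of 10 gene symbols were taken from the FPKM of both libraries, 7 MMP genes (Mmp2, Mmp8, Mmp9, Mmp12, Mmp13, Mmp14 and Mmp19) and 3 TIMP genes (Timp1, Timp2 and Timp3), out of 24346 listed symbols. All 10 were found in both libraries. The cells came from Foxp3-DTR-GFP (FDG) mice, in which GFP is driven from the endogenous Foxp3 locus and so marks Tregs, and the mice were 10 to 16 weeks old. All of them had received 50 μg of BLM intratracheally, and on day 15 sorted cells were pooled from 3 mice for each library, 1 of the spleen and 1 of the lung. No library of untreated mice was analysed here, so the comparison is between tissues, and every value below comes from a single pooled library with no replicate check and no p-value.

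MMPs are zinc-dependent endopeptidases that cleave collagens, elastin and other matrix proteins, and most of them are secreted as inactive proenzymes. TIMPs bind the active site of MMPs and block it, and the TIMP2 protein also takes part in the activation of the MMP2 proenzyme by MMP14 at the cell surface. In injured lungs both families are known from macrophages, neutrophils and fibroblasts, and MMP9 and TIMP1 are also known from activated T cells.

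FPKM is a level per exon length and per mapped fragment of the library, so it can be compared between genes within a library. Lung-to-spleen ratios were calculated after values under 0.1 FPKM had been raised to 0.1. The number of reads behind a value was estimated from the transcript length and the size of 1 read, and the 95% intervals given with levels and ratios cover the counting of these reads only. The FPKM summed to 599633 for spleen and 808853 for lung, for about 10242200 and 13413400 estimated reads.

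Of the 10 genes, 9 had a higher FPKM in the lung library and 1, Mmp13, had a lower one. With the threshold of 20-fold, 4 genes were above it in lung (Mmp12, Timp1, Mmp19 and Mmp2), where 1.62% of all listed symbols were above it. With a threshold of 2-fold, 9 of the 10 were above it in lung against 11.0% of all listed symbols, and 0 were below it against 11.7%. Among the 11421 symbols with a mean of at least 1 FPKM over both libraries, 3.46% were over 20-fold higher in lung, and 1833 of the 11421 were over 2-fold higher. The median log2 ratio of the 10 genes was 2.91, and that of all listed symbols was 0. The 10 genes were chosen with earlier results of these data known, so these counts describe the chosen genes and not the whole family. Of the MMP genes left out, 1 of 10 secreted and 1 of 6 membrane-bound ones were over 2-fold higher in lung. The ratios of Mmp14 and Timp2 lay so close to 2 that rescaling both libraries to TPM left 7 genes above 2-fold. This rescaling changed log2 ratios by -0.43 where both values stayed above the floor, but the ratios of Mmp2, Mmp19 and Timp1, whose splenic FPKM lay under it, became 38.5, 74.98 and 767, and that of Mmp13 became 0.383.

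**Figure D1:**
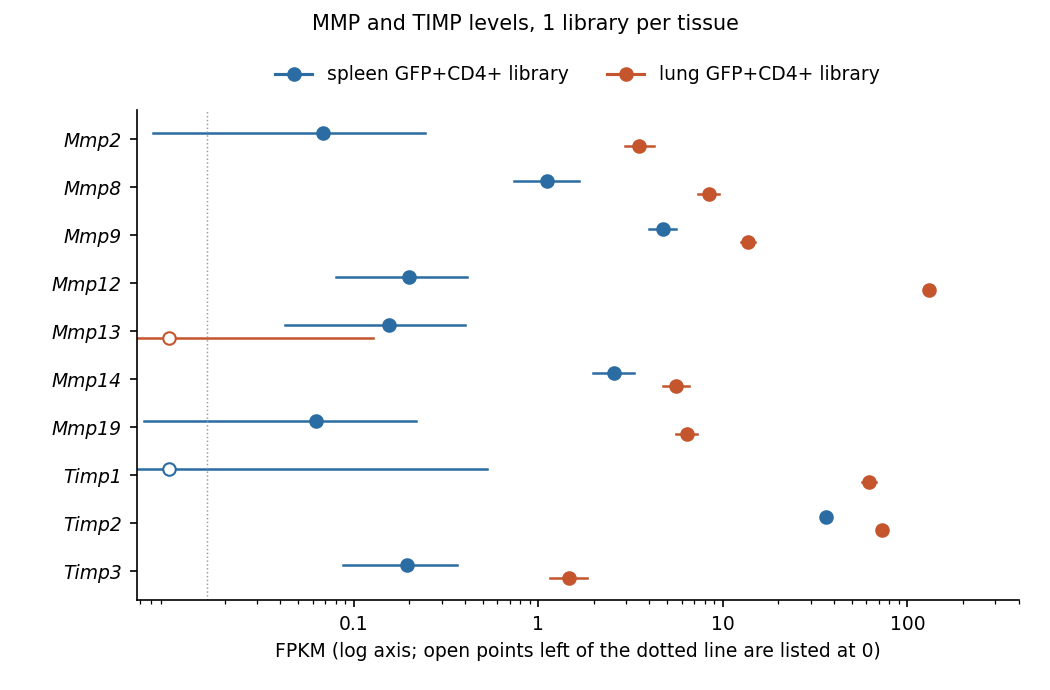
Levels of the 7 MMP and 3 TIMP genes in FPKM on a log axis, with 1 point for the splenic (blue) and 1 for the lung (orange) library, and bars for the 95% counting interval from estimated reads. Open points left of the dotted line are listed at 0. Mmp12 lies at 0.199 FPKM in spleen and 130 in lung, whereas the bars of Mmp13 overlap.

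Within the splenic library, Timp2 stood above the other 9 genes at 36.1 FPKM, followed by Mmp9 at 4.75, Mmp14 at 2.58 and Mmp8 at 1.12, and the intervals of these 4 did not overlap. Mmp12, Timp3, Mmp13, Mmp2 and Mmp19 lay between 0.0629 and 0.199 FPKM with overlapping intervals and could not be ordered, and Timp1 was listed at 0. Within the lung library the order was Mmp12, Timp2, Timp1, Mmp9, Mmp8, Mmp19, Mmp14, Mmp2, Timp3 and Mmp13. There only the neighbours Mmp19 and Mmp14 had overlapping intervals, from 5.58 to 7.22 and from 4.75 to 6.53 FPKM. Mmp12 ranked 934 among the 13708 symbols above 0 in lung, Timp2 1648 and Timp1 1866.

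Mmp12 encodes macrophage elastase, which cleaves elastin. It was listed at 0.199 FPKM in spleen and at 130 FPKM in lung. Its lung value was the highest of the 10 genes in either library, and its splenic value was among the lower ones. The ratio was 656, with an interval from 318 to 1632, and rested on about 7 splenic and 5213 lung reads with the longer of its 2 transcripts, of 3607 nt. A transcript of 1452 nt would give about 2.56 and 1907 reads. The gene spans 7344381 to 7369499 on chromosome 9 (GRCm38, mm10; plus strand) and has 10 exons in the longer transcript. At its 3' end 157 exonic bases are shared with Mmp1b on the opposite strand, and Mmp1b was listed at 0 in both libraries.

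Mmp12 belongs to a cluster of 10 MMP genes between 7272514 and 7699585 on that chromosome, which also holds Mmp13 and Mmp8. Of the 7 others, 5 (Mmp1b, Mmp3, Mmp1a, Mmp10 and Mmp7) were listed at 0 in both libraries. Mmp27 was listed at 0.0666 FPKM in spleen and 0 in lung, and Mmp20 at 0 and 0.0554. Mmp3 and Mmp10 are stromelysins and Mmp7 is matrilysin. In the lung library, Mmp12 and Mmp8 were thus the only genes of this cluster at 1 FPKM or more, and the gene next to Mmp12 in the cluster, Mmp13, was at 0.

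The promoters of Mmp12 and Mmp13 are shown since these neighbours differed so much in lung, and that of Timp1 as the inhibitor with the largest ratio. Each is the 150 bases before the annotated start (RefSeq, GRCm38.p6), on the plus strand and written 5′ to 3′, with capitals for a match to the AP-1 motif TGANTCA or the TATA motif TATAAA. For Mmp12, which has 2 annotated starts, the downstream one was used, with the stretch at chr9:7347224-7347373. At the upstream start neither motif was found. The starts were not matched to the longer and shorter transcript of Mmp12. The stretch of Mmp13 is chr9:7272364-7272513 and that of Timp1 is chrX:20870016-20870165.
Mmp12: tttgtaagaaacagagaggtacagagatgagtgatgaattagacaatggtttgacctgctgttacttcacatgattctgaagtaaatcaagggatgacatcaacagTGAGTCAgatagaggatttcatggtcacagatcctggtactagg
Mmp13: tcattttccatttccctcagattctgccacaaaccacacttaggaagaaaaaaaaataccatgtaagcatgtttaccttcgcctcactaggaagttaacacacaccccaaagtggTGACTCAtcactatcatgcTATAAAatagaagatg
Timp1: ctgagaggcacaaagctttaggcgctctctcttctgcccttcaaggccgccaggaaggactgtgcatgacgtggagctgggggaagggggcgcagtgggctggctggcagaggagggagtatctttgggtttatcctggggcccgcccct

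Both motifs were searched on both strands in windows from 250 bases before to 50 bases after the start. An AP-1 motif was found in 7.81% and a TATA motif in 13.6% of 32851 windows of all genes, and both together in 1.54%. Windows were at hand for 7 of the 10 genes. Mmp12 had TGAGTCA from position -44 and TATAAA from position 5, counted from the annotated start, and Mmp13 had TGACTCA from -35 and TATAAA from -16. The window of the upstream Mmp12 start and those of Mmp14, Timp1, Timp2 and Timp3 had neither, and Mmp8 had TATAAA on the opposite strand only. Both motifs were thus found in the window of Mmp13 and in 1 of 2 windows of Mmp12, where TATAAA lay after the start, outside the stretch shown. The levels of Mmp12 and Mmp13 in lung were 130 and 0 FPKM, and a link to the motifs was not tested.

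Mmp13 and Mmp8 are collagenases, which cut fibrillar collagen. Mmp13 was listed at 0.156 FPKM in spleen, about 4 reads, and at 0 in lung, where 3 reads would correspond to 0.103 FPKM. The floored ratio was 0.639. The interval of the ratio without the floor went from 0 to 1.33, so that no difference was detectable at this depth. Mmp8, the collagenase of neutrophil granules, had 1.12 FPKM in spleen and 8.40 in lung. Its ratio was 7.52, from 4.93 to 11.6, on about 25.7 and 219 reads. Of both collagenases, only Mmp8 was thus above 1 FPKM in either tissue.

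The gelatinases Mmp2 and Mmp9 cleave denatured collagen and basement membrane collagen. Mmp9 had 4.75 FPKM in spleen and 13.7 in lung, a ratio of 2.90 with an interval from 2.40 to 3.51. It had the highest MMP level in the splenic library. Mmp2, an enzyme known mainly from fibroblasts, had 0.0681 FPKM in spleen and 3.54 in lung. The floored ratio of Mmp2 was 35.4. Without the floor it was 52.0, from 14.3 to 441, because only about 2.03 reads lay behind the splenic value. The size of this ratio was therefore poorly set, and its lower bound was under 20. Mmp9 was thus above Mmp2 in both libraries.

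Mmp14 encodes a membrane-type MMP that is anchored at the cell surface and activates the MMP2 proenzyme. It had 2.58 FPKM in spleen and 5.58 in lung, about 64.0 and 157 reads. The ratio was 2.16 with an interval from 1.61 to 2.94, and became 1.60 after rescaling to TPM. Mmp19, a secreted MMP, had 0.0629 FPKM in spleen and 6.36 in lung. Its floored ratio was 63.6, and without the floor it was 101, from 28.8 to 874, on about 2.08 reads in spleen. Mmp14 was therefore present in both tissues, and Mmp19 had 1 FPKM or more in lung alone. Mmp19 shares 789 exonic bases with Tmem198b on the opposite strand, and the SMART-Seq HT cDNA does not mark strand. Tmem198b had 2.95 FPKM in spleen and 2.68 in lung. Mmp19 also shares 212 exonic bases with the antisense gene Gm47093, which was not among the listed symbols.

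**Figure D2:**
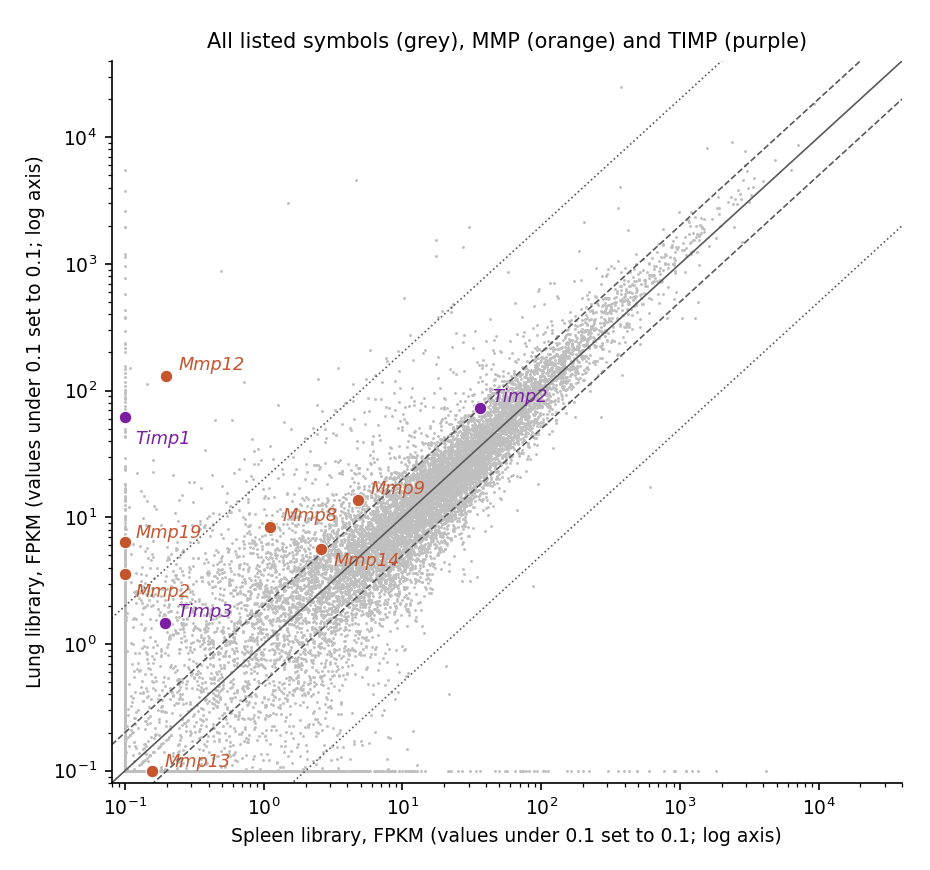
FPKM of all listed symbols in the splenic (x) and lung (y) library on log axes, with values under 0.1 set to 0.1, MMP genes in orange and TIMP genes in purple. The lines mark equal levels (solid), 2-fold (dashed) and 20-fold (dotted) differences. Mmp12, Timp1, Mmp19 and Mmp2 lie above the upper dotted line.

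Timp1 encodes a soluble inhibitor with a broad range of MMPs. It was listed at 0 in spleen and at 62.0 FPKM in lung, with about 492 reads over its 883 nt and 6 exons on the plus strand of chromosome X. With 3 splenic reads, or 0.429 FPKM, set in place of the count of 0, the ratio of Timp1 was 145. With the count of 0, the lower end of the 95% counting interval of the lung-to-spleen ratio was 117. Timp1 lies inside Syn1 on the opposite strand but shares no exonic bases with it, and Syn1 was at 0.0650 and 0.659 FPKM.

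Timp2, the inhibitor that also bridges MMP14 and the MMP2 proenzyme, had 36.1 FPKM in spleen and 72.5 in lung. The ratio was 2.01, from 1.88 to 2.15, on about 1310 and 2988 reads, and became 1.49 after rescaling to TPM and 1.78 with equal upper quartiles. Cep295nl overlaps the span of Timp2 but shares no exonic bases with it, and was not among the listed symbols. Timp3, which binds to the matrix and also inhibits proteases of the ADAM family, had 0.194 FPKM in spleen and 1.46 in lung, a ratio of 7.54 with an interval from 3.82 to 17.3. Of the TIMPs, Timp2 was thus above 1 FPKM in spleen, and all 3 were above it in lung. Timp3 shares 1733 exonic bases with Syn3 on the opposite strand, which had 0.191 FPKM in spleen and 0 in lung, so that reads of the 2 genes cannot be told apart in the splenic library.

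The 7 MMP genes together came to 8.94 FPKM in spleen and 168 in lung, and the 3 TIMP genes to 36.3 and 136. Mmp9 made up 53.1% of the MMP sum in spleen, and Mmp12 made up 77.6% of it in lung. Timp2 made up 99.5% of the TIMP sum in spleen and 53.3% in lung, where Timp1 made up 45.6%. The TIMP sum was 4.06 times the MMP sum in spleen and 0.810 times in lung. Without Mmp12 these quotients were 4.15 and 3.61, so for these 7 genes the difference in the quotient rested on that gene. The quotients hold for the 7 chosen MMP genes only, as the sums leave out the other 16 MMP genes. Of those, the secreted ones summed to 4.47 FPKM in spleen and 5.11 in lung, and the membrane-bound ones to 1.04 and 1.51. These are sums of RNA levels and say nothing of protein or enzyme activity.

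**Figure D3:**
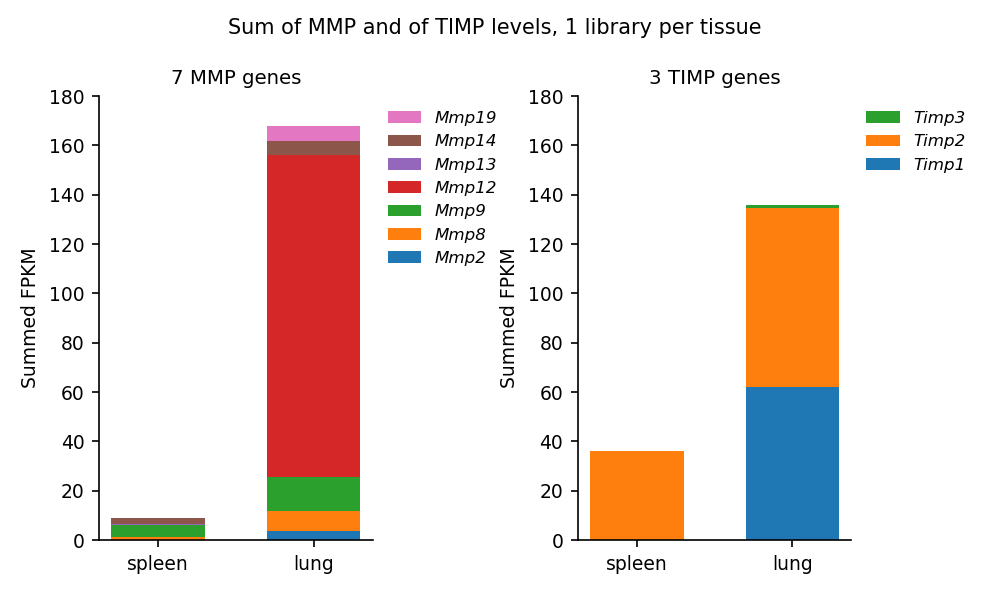
Stacked bars of summed FPKM for the 7 MMP genes (left) and the 3 TIMP genes (right) in the splenic and lung library, 1 colour for each gene. The MMP bar is at 8.94 in spleen and 168 in lung, where Mmp12 fills most of it, and Timp1 appears in the lung bar of the TIMPs alone.

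Markers of other cells differed between the libraries as well. T cell and Treg markers were present in both libraries, with Cd3e at 513 FPKM in spleen and 369 in lung, Cd4 at 195 and 179, Foxp3 at 18.7 and 41.8, Cd3d at 469 and 468, Il2ra at 89.4 and 59.1, Ctla4 at 221 and 601, and Ikzf2 at 42.0 and 41.6. All 12 macrophage markers were higher in lung, their sum was 680 FPKM in spleen and 27289 in lung, and none was at 0 in either library. Most of both sums came from Lyz2 alone, at 376 FPKM in spleen and 24947 in lung. The median log2 ratio of the 12 markers was 2.21. Their ratios ran from 1.14 for Csf1r to 66.8 for Chil3, with 66.3 for Lyz2, 17.7 for Itgax, 8.57 for Cd68, 4.87 for Marco, 4.76 for Mertk, 4.34 for C1qb, 2.78 for C1qa and 1.66 for Adgre1, and 0 of the 12 exceeded the ratio of Mmp12.

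Of 7 matched neutrophil markers, 5 were higher in lung, and the sum was 463 FPKM in spleen and 1200 in lung. Their ratios were 2.92 for S100a8, 2.73 for S100a9, 6.49 for Csf3r, 1.66 for Cxcr2 and 1.67 for Retnlg, beside 2.90 for Mmp9 and 7.52 for Mmp8. Ngp and Elane, at 36.4 and 1.76 FPKM in spleen, were at 0 in lung. Of 8 fibroblast markers, 6 were higher in lung and Pdgfrb and Mfap4 were at 0 in both libraries, as were Col3a1, Lum and Pdgfra in spleen, with a sum of 0.290 FPKM in spleen and 47.2 in lung. In lung, Lum had only 0.137 FPKM and Pdgfra 0.736. Dcn had a ratio of 183, Col1a2 of 134 and Col1a1 of 46.1, beside 35.4 for Mmp2. The part of macrophages, neutrophils and fibroblasts in the MMP and TIMP levels was not tested, and in bulk RNA fewer cells of a type cannot be told apart from less RNA in each.

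Other cell types were seen as well. Lung epithelial markers summed to 12.8 FPKM in spleen and 3133 in lung, with 6 of 8 higher in lung. Most of the lung sum came from Scgb1a1, at 1.48 FPKM in spleen and 3021 in lung, a ratio of 2035. Sftpa1 had a ratio of 49.3. Epcam, at 8.75 and 1.79 FPKM, and Ager, at 2.27 and 1.74, were lower in lung. Sftpc, Sftpb and Krt8 were at 0 in spleen and at 94.8, 1.75 and 6.44 FPKM in lung. Endothelial markers summed to 55.5 and 48.9 FPKM, with 5 of 7 higher in lung, Kdr at 0 there and Cdh5 and Tek at 0 in spleen. Egfl7 and Cldn5 had ratios of 79.7 and 41.0, and Pecam1 had 54.8 FPKM in spleen and 31.7 in lung. B cell markers summed to 239 and 123 FPKM, with all 5 lower in lung, and had ratios of 0.378 for Cd79a, 0.462 for Ms4a1 and 0.661 for Cd79b. Dendritic cell markers summed to 11.9 and 31.1 FPKM, with 3 of 6 higher and 3 lower in lung. Of the 6, 2 were over 2-fold higher and 2 over 2-fold lower, against 11.0% and 11.7% of all listed symbols. Ratios were 6.79 for Zbtb46, 3.97 for Cd209a and 0.156 for Clec9a, which was at 0 in lung.

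**Figure D4:**
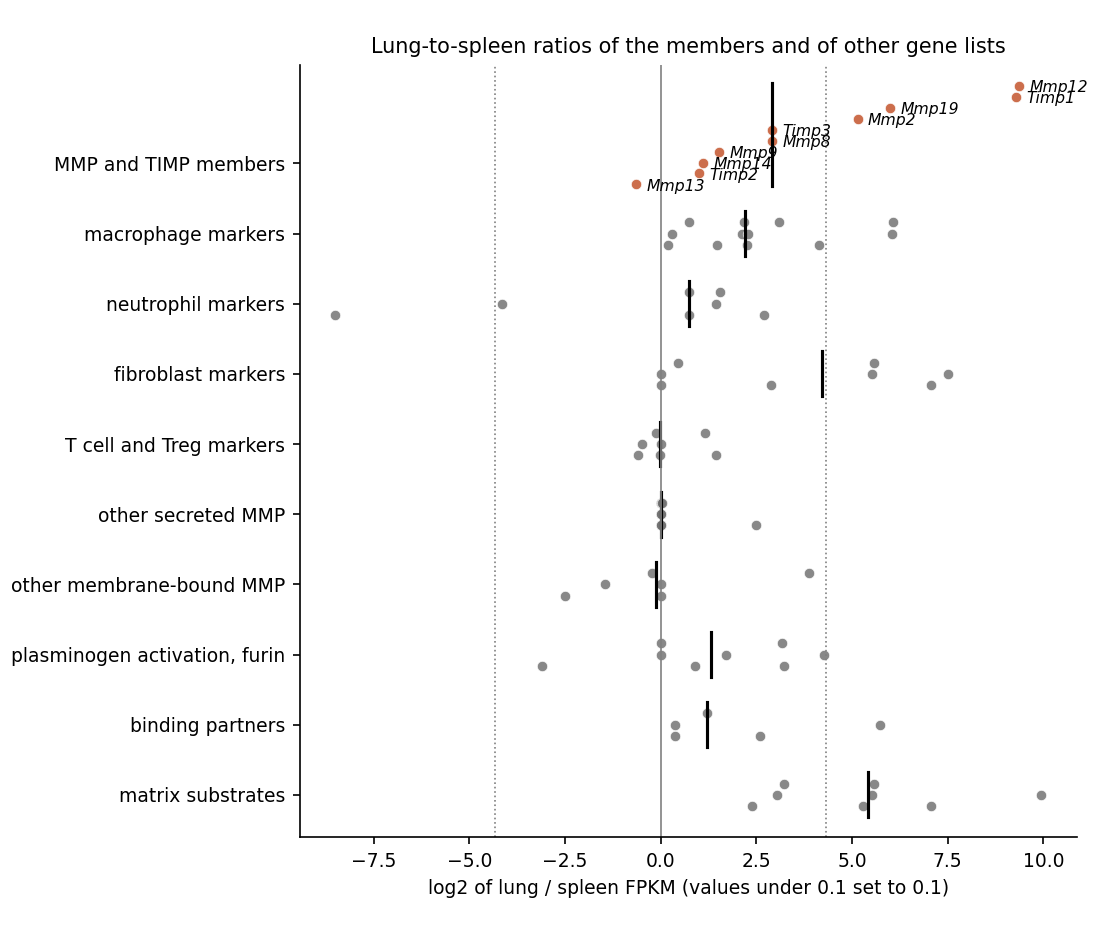
Log2 of the lung-to-spleen FPKM ratio for the 10 MMP and TIMP genes (orange, named) and for marker and pathway lists (grey), with 1 point for each gene, a black line at the median and dotted lines at 20-fold. Genes at or under 0.1 FPKM in both libraries lie at 0. The median is 2.91 for the members, 2.21 for macrophage markers and 4.20 for fibroblast markers.

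Of the other 16 MMP genes, 6 were listed at 0 in both libraries, 8 stayed under 1 FPKM, and 2 reached 1 FPKM. Mmp11, stromelysin-3, had 4.36 FPKM in spleen, more than Mmp14 and Mmp8 there, and 4.49 in lung, and the membrane-type gene Mmp16 was listed at 0 in spleen and at 1.46 in lung. Among 10 other secreted MMPs 1 was over 2-fold higher and 0 were over 2-fold lower. Among 6 other membrane-bound MMPs 1 was over 2-fold higher and 2 were over 2-fold lower. Of all listed symbols, 11.0% were over 2-fold higher and 11.7% over 2-fold lower. The median log2 ratios of the secreted and membrane-bound ones were 0 and -0.12, beside 0 for all listed symbols. Of 3 other inhibitors, Timp4 and A2m were at 0 in both libraries, and Reck, a membrane-anchored inhibitor of MMPs, had 2.65 FPKM in spleen and 4.81 in lung. The secreted ones summed to 4.47 FPKM in spleen and 5.11 in lung and the membrane-bound ones to 1.04 and 1.51, beside 8.94 and 168 for the 7 MMPs described above.

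Plasmin activates several MMP proenzymes. Of 8 genes of plasminogen activation and furin, 4 were over 2-fold higher and 1 was over 2-fold lower in lung. The shares of all listed symbols were 11.0% and 11.7%. The median log2 ratio of the 8 genes was 1.30. Plaur, the urokinase receptor, had 17.5 FPKM in spleen and 163 in lung. Furin, which cleaves the propeptide of membrane-type MMPs, was at 9.76 and 18.2 FPKM. Plau, urokinase itself, was at 0.0452 and 1.91 FPKM and stayed just under 20-fold at the floor, and Plat, the tissue activator, was at 0.863 and 0.0362.

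Of 5 genes for binding partners, 5 were higher in lung, 3 of them over 2-fold, where 11.0% of all listed symbols were over 2-fold higher. Cd63, a tetraspanin that binds TIMP1, had 10.2 FPKM in spleen and 539 in lung, a ratio of 52.8. Cd44, which can hold MMP9 at the cell surface, was at 35.0 and 81.1 FPKM, Bsg, an inducer of MMPs, at 117 and 151, and Lcn2, which forms a complex with MMP9, at 11.4 and 14.8.

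All 8 genes for MMP substrates were over 2-fold higher in lung, against 11.0% of all listed symbols. Of the 8, 5 were over 20-fold higher, against 1.62% of all listed symbols, and the median log2 ratio was 5.41. Spp1, osteopontin, had 4.62 FPKM in spleen and 4560 in lung, a ratio of 988, and was the only one of the 8 above the ratio of Mmp12. Fn1, fibronectin, was at 0.857 and 33.4 FPKM, Col1a1 at 0.129 and 5.94, and Col1a2 at 0.0391 and 13.4. Col3a1 was listed at 0 in spleen and at 4.74 in lung. Eln, the elastin that MMP12 cleaves, was listed at 0 in spleen and at 0.523 FPKM in lung. Col1a1, Col1a2 and Col3a1 are also in the list of fibroblast markers.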

How the data were processed

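GFP+CD4+ cells of spleen and lung were compared, with 1 library for each tissue. The authors mapped reads to mm10 with TopHat2 2.1.1, Bowtie2 2.2.8 and SAMtools 0.1.18 and deposited FPKM from Cuffdiff 2.2.1. The annotation, the Cuffdiff options and any scaling between libraries are not given in the sources used here, and strand was not marked. Members, lists and settings were chosen with earlier results of these data known.

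Ratios, floored at 0.1 FPKM, were computed over all 24346 symbols, and members were counted beyond 20-fold and 2-fold. Reads were estimated from the longest GENCODE M21 transcript (GRCm38) tied to a RefSeq accession, found for 94.5% of symbols. Effective lengths assumed fragments of 200 ± 80 nt. The shortest fragment, 73 nt among 70 to 76 tried, brought reads of transcripts under 150 nt nearest to whole numbers. FPKM was multiplied by effective length for genes with 1 transcript length of at least 1500 nt. The most frequent value, or a smaller step of it, was taken as 1 read and was shared by 210 genes in spleen and 127 in lung. This gave 1 read as 0.0964 FPKM in spleen and 0.0849 in lung at 1 kb. Among genes with 1 transcript length and 1 to 10 reads, 73.1% and 75.5% came within 0.1 of whole reads. Intervals are exact Poisson (levels) and Clopper-Pearson (ratios), at 95%, and PCR copies are not independent molecules. Steps were tested on simulated data.

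Named were the members, genes overlapping them or in the same cluster, and list genes over 20-fold or at 10 FPKM; Mmp11, Mmp16, Reck, Timp4, A2m, Plau, Plat, Eln, Adamts6, Cxcr2, Epcam, Ager, Sftpb and the markers listed at 0 in a library were named after their values had been seen. A marker gene that this rule takes is not reported here. Lists comprised other MMPs, inhibitors, plasminogen activation, binding partners, substrates, ADAM and ADAMTS proteases, and markers of T cells, macrophages, neutrophils, fibroblasts, epithelium, endothelium, B cells and dendritic cells. Planned protein features were not computed, as no protein table was used here. Software was Python 3.11.15 with scipy 1.17.1, pandas 2.3.3, matplotlib 3.10.9 and numpy 2.4.6.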

Additional observations from a re-analysis of the deposited data

How the results depend on the processing

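Each of 9 settings was tried on the ratios, counts and median of the 10 genes. Mmp12 and Timp1 stayed above 20-fold in lung under all of them, with lowest ratios of 110 and 62.0, but Mmp2 and Mmp19 had ratios of 3.54 and 6.36 with a floor of 1 FPKM and of 4.25 and 6.93 with a pseudocount of 1 FPKM, so that 2 genes were left above 20-fold in both. The number over 2-fold higher lay between 7 and 9. Mmp13 became over 2-fold lower, 1 gene in place of 0, with a floor of 0.01 FPKM, a pseudocount of 0.1 FPKM and rescaling to TPM, and was equal in both libraries with a floor of 1 FPKM, each time on about 4 and 0 reads. The median log2 ratio was 1.68 with a floor of 1 FPKM, 2.61 and 1.72 with pseudocounts of 0.1 and 1 FPKM, 2.48 after rescaling to TPM, 2.74 with equal upper quartiles and 4.03 over genes with a mean of at least 1 FPKM, a filter that removes Mmp13 and Timp3. The other settings, a floor of 0.01 FPKM, a median ratio of 1 and at least 3 reads in each library, moved it by less than 0.1. No gene changed direction in any of the 88 ratios recomputed, apart from the equal value of Mmp13. Depth limits the splenic values of Mmp2, Mmp19, Mmp13, Mmp12, Timp3 and Timp1, which rested on fewer than 10 estimated reads each.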

Other observations

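Metalloproteinases of the neighbouring ADAM and ADAMTS families were present in both libraries. ADAM proteases shed membrane proteins. Of the 9 listed here, 3 exceeded 2-fold in lung against 11.0% of all listed symbols, and 0 were over 2-fold lower against 11.7%. Their median log2 ratio was 0.38 beside 0 for all listed symbols. Adam8, a leukocyte sheddase, had 5.87 FPKM in spleen and 31.3 in lung, and Adam9 at 2.88 and 14.1. Adam17, which sheds TNF, had 25.2 FPKM in spleen and 32.8 in lung, Adam19 at 12.4 and 18.2, and Adam10 at 35.0 and 18.9. Adam10, Adam17, Adam19 and Adam8 were thus above every MMP in spleen, where Mmp9 at 4.75 FPKM and Mmp11 at 4.36 were the highest MMPs. In lung, Mmp12 was above all 9 ADAM genes.

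ADAMTS proteases are secreted and cleave proteoglycans and procollagens. Of 12 genes, 2 were over 2-fold higher in lung against 11.0% of all listed symbols, and 1 was over 2-fold lower against 11.7%. A further 3 were at 0 in both libraries, and the median log2 ratio was 0. Adamts10 had 28.4 FPKM in spleen and 14.2 in lung, and Adamts6 at 7.73 and 9.24. The other 10 stayed under 1 FPKM in both libraries.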
